A study of Homo sapiens with 6 samples.

Results

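The core macroautophagy genes are 39 genes whose products build the autophagosome, from the ULK initiation complex to the cargo receptors. They are listed by name and role, with no threshold on measured values beyond a minimum mean. The list was chosen with earlier results of these data known, so shares of it that were called are a description. All 39 were found among the 27394 genes of the deposited table, and all 39 were among the 22189 genes tested, those averaging at least 1 normalized count over the 6 libraries. RNA was sequenced from PANC-1, an established human pancreatic cancer cell line. It was cultured in RPMI-1640 with serum per the sample labels and in DMEM with serum per the study's methods. There were 3 shControl libraries (control shRNA) and 3 shZDHHC20 libraries (shRNA against the palmitoyltransferase ZDHHC20). The study lists more than 1 hairpin against ZDHHC20 and does not state which was sequenced. Effects of a hairpin on other genes cannot be told apart from loss of ZDHHC20. The labels give no other allele or agent, no time after delivery and no hairpin sequence, and they do not say whether replicates were separate cultures, so p-values measure only the spread between these libraries. A normalized count is the number of reads of a gene divided by 1 size factor for the library, and it is not divided by gene length.

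Macroautophagy encloses cytoplasm in a double membrane and delivers it to the lysosome for breakdown. The ULK kinases start the process, the class III PI3-kinase complexes mark the site with a phosphoinositide lipid, and lipid transfer and scramblase proteins extend the membrane. A ubiquitin-like conjugation system then attaches ATG8 proteins such as LC3 to that membrane, where cargo receptors bind them. Pancreatic ductal cancers are known for high basal autophagy. The libraries measured RNA, and neither protein nor autophagic flux was analysed here.

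ZDHHC20 itself had 2001, 2033 and 1940 normalized counts in the shControl libraries, in the order of their replicate numbers, and 872, 779 and 893 in the shZDHHC20 libraries, a log2 fold change of -1.23 (adjusted p = 4.36e-07, limma). The 6 libraries held 16575546 to 18441049 recovered reads. Library shZDHHC20 replicate 2 stood apart, with an SD of log2 differences of 0.178 and 0.198 from the other shZDHHC20 libraries over 4136 genes (mean of at least 1000), against 0.0674 to 0.0722 for the other pairs within a group. It lay outside the range of the other shZDHHC20 libraries in 31 of the 39 genes (79.5%), against 76.1% of all genes tested and 84.1% of those with a mean reaching 100. Results are also given without it, which leaves 2 shZDHHC20 libraries that lie close together. In that fit 20.0% of all genes had an adjusted p under 0.05, against 11.5% with all libraries, so its p-values are to be read with care. The epithelial keratins KRT8, KRT18 and KRT19 ranged from 5771 to 56688 normalized counts, while KRT7 was at most 122. Of 18 markers of leukocytes, endothelium, acinar and endocrine pancreas and hepatocytes, 10 had a row, none above 8.66 normalized counts, with sums of 9.01 to 16.2 per shControl library and 22.5 to 28.6 per shZDHHC20 library. The part of these low counts in the results was not tested. In bulk RNA, fewer cells of a type and less RNA per cell cannot be told apart.

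A gene was called when its adjusted p was under 0.05 by limma, with Benjamini-Hochberg adjustment over all genes tested. Of the 39 autophagy genes, 14 (35.9%) were called, against 11.5% of all genes tested and 21.7% of the 10908 genes whose mean reached 100 normalized counts (well-expressed genes), as 38 of the 39 did. The kinases and scaffold genes ULK1, ULK2, BECN1 and PIK3C3, the membrane genes WIPI2 and VMP1, the protease gene ATG4A, the ATG8 genes MAP1LC3B and GABARAPL1 and the receptor genes NBR1 and TAX1BP1 rose. These 11 make up 28.2% of the group, against 4.61% of all genes and 8.41% of well-expressed genes that were called higher. The conjugation enzyme genes ATG3 and ATG7 and the receptor gene SQSTM1 fell, 3 genes or 7.69%, against 6.84% of all genes and 13.3% of well-expressed genes that were called lower. The changes were small, from 1.12-fold to 1.38-fold for the genes that rose and from 14.4% to 20.4% for those that fell. None of the 39 met a p under 0.01 together with a fold of at least 1.5, which 2.45% of all genes did. The groups of 3 did not overlap for 25 of the 39 genes (64.1%), with shZDHHC20 above in 18 and below in 7, while 28.6% of all genes and 42.6% of well-expressed genes did not overlap. The median log2 fold change was 0.11 over the 39 genes, 0.0132 over all genes tested and -0.0118 over well-expressed genes. With 3 libraries against 3, an exact permutation test on a single gene cannot give a p under 0.1, so the calls rest on variance shared across genes.

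**Figure D1:**
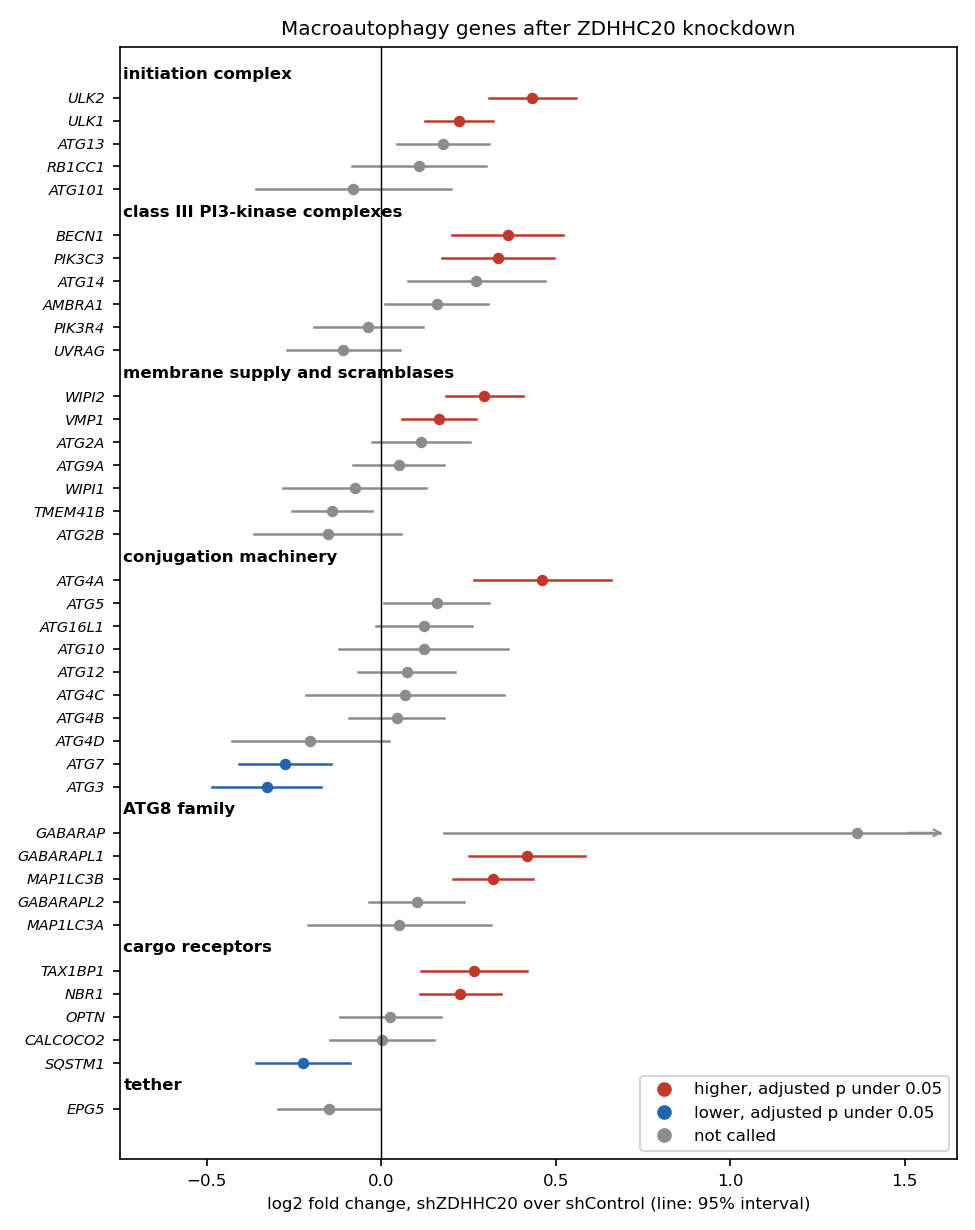
Log2 fold change of each of the 39 genes (shZDHHC20 over shControl, 3 libraries each), grouped by role, with points for the estimate and lines for the 95% interval; the interval of GABARAP runs past the axis to 2.55. Red and blue points are the 11 genes called higher and the 3 called lower, and no other point is called.

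The calls depend on how the variances were moderated. Without a mean-variance trend in limma, none of the 39 genes was called (13 had an unadjusted p under 0.05), and 351 (1.58%) of all genes were, with adjusted p-values of the 14 genes from 0.0545 for ULK2 to 0.305 for SQSTM1. With edgeR's quasi-likelihood test and with DESeq2 on the recovered reads, the same 14 genes were called and no other. ULK2, BECN1, WIPI2, ATG4A, MAP1LC3B and GABARAPL1 were called in 16 of 17 alternatives, including each fit that left out 1 library. VMP1, called in 8, and SQSTM1, called in 9, were the least stable. Of the 39 genes, 7 were called when shControl replicate 2 was left out and 7 when shControl replicate 3 was, and 9 were called when either shZDHHC20 replicate 1 or replicate 3 was left out. The share of well-expressed genes called was lower in these fits too, at 11.0%, 10.6%, 11.9% and 15.4% in the same order of libraries, against 21.7% with all libraries. Without shControl replicate 1 there were 11, when 10.6% of well-expressed genes were called, among them GABARAP, which then met a p under 0.01 with a fold of at least 1.5. Without shZDHHC20 replicate 2, the same 14 genes and 6 more were called, ATG13, ATG101, RB1CC1, ATG14, AMBRA1 and ATG5, when 20.0% of all genes and 38.3% of well-expressed genes were.

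**Figure D2:**
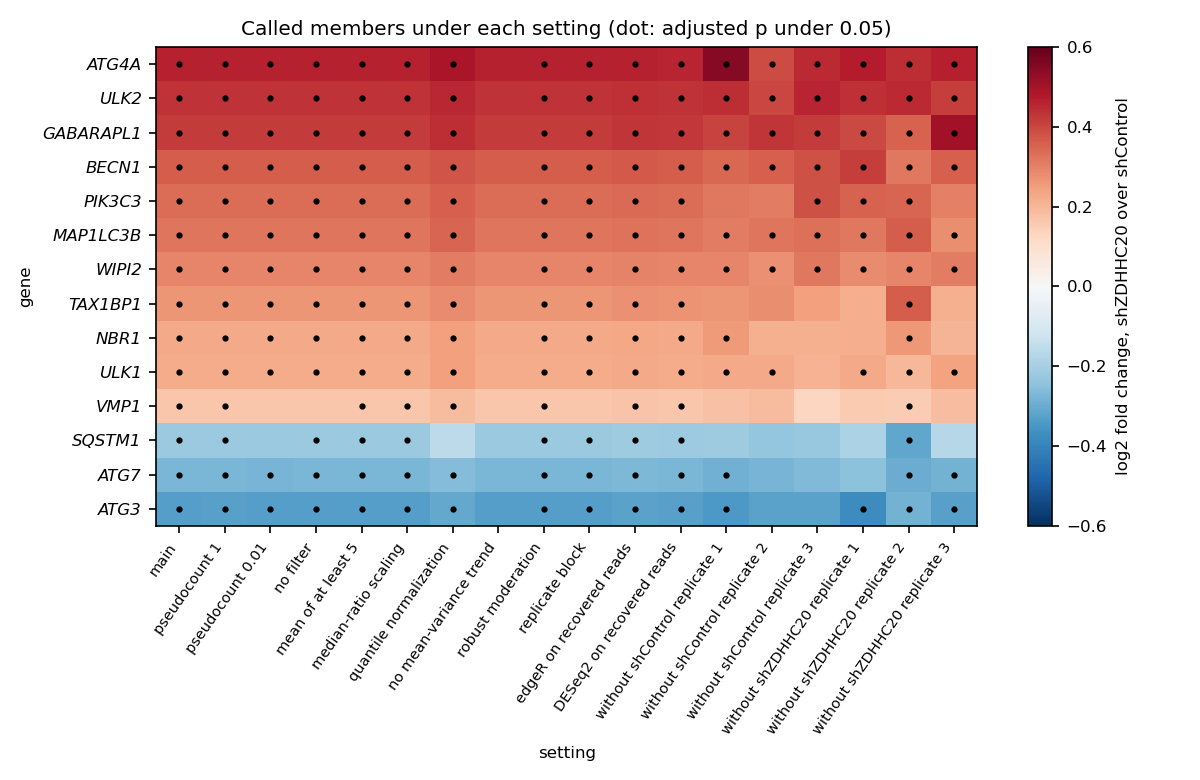
Log2 fold change (colour) of the 14 called genes under the fit used here and 17 alternative settings on the horizontal axis, with a dot where the adjusted p was under 0.05. The column without a mean-variance trend holds no dot, and no colour changes between red and blue along a row.

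Promoter sequences are shown because the E-box CACGTG is the core motif bound by basic helix-loop-helix factors, among them MYC, whose own RNA was lower after knockdown (log2 fold change -0.59, adjusted p = 2.79e-05, limma), and TFEB, which binds it within the longer CLEAR element. RefSeq promoter windows on GRCh38.p14, from 250 bases before to 50 bases after a start, matched 34 of the 39 genes in 42 windows; RB1CC1, EPG5, ATG4D, UVRAG and MAP1LC3A had no entry. Both motifs read the same on either strand, and every CLEAR element contains an E-box. CACGTG was found in 2 of the 42 windows, those of ATG3 and ATG14, and in 7.26% of all 35116 windows. Counted by gene, it was in 2 of the 34 genes (5.88%), and the share by gene was not computed for other genes. The CLEAR letters GTCACGTGAC were in none of the 42 windows and in 0.353% of all windows. ATG3 had E-boxes at positions -18 to -13 and 6 to 11 from the start (position 1), and ATG14 had 1 at -21 to -16. Capitals mark them, 5′ to 3′ along the gene, with ATG3 on the minus strand of chr3:112561913-112562212 and ATG14 on the minus strand of chr14:55411781-55412080.
ATG3: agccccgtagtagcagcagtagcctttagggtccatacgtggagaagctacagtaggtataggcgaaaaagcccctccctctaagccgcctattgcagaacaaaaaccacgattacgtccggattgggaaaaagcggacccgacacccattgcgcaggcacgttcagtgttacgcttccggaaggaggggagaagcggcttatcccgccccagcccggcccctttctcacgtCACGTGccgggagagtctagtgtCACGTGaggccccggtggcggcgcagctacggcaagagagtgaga
ATG14: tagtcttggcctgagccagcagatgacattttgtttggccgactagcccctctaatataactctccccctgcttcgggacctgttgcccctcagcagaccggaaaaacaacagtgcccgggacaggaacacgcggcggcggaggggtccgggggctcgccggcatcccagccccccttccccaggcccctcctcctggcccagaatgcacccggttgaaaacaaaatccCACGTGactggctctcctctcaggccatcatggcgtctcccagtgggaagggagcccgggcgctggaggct
None of the 11 genes that rose had a CACGTG in its windows, a motif held by only 7.26% of all windows. With so few genes, its absence does not differ visibly from that share, and a link to MYC or TFEB was not tested. A match is a run of letters and not a measured binding site.

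The initiation complex joins a ULK kinase to ATG13, ATG101 and the scaffold RB1CC1 (FIP200). Of its 5 genes, 2 rose and none fell. ULK1 (ENSG00000177169), the kinase that starts autophagy when nutrients are short, had 4595, 4598 and 4477 normalized counts in the shControl libraries and 5285, 5491 and 5182 in the shZDHHC20 libraries, here and throughout in the order of replicates 1 to 3. Every shZDHHC20 library lay above every shControl library, and the log2 fold change was 0.22 ± 0.0453 (SE, n = 3 per group, adjusted p = 0.00626 by limma), a call that was lost without shControl replicate 3. ULK2 (ENSG00000083290), its close paralog, went from 1220, 1153 and 1245 to 1618, 1591 and 1671 normalized counts in the same order. The estimate was larger than that of ULK1, a difference that was not tested, at 0.43 ± 0.0576 on the log2 scale (SE, n = 3, adjusted p = 0.000327 by limma), with tight groups that did not overlap. ATG13, the regulatory subunit that mTORC1 phosphorylates, had 1100, 1169 and 1232 against 1332, 1324 and 1300 normalized counts. Its groups did not overlap either, but it was not called (log2 fold change 0.18, 95% interval 0.05 to 0.31, adjusted p = 0.0847 by limma). RB1CC1 and ATG101 overlapped between groups, with shZDHHC20 replicate 2 on the other side of the controls from the other shZDHHC20 libraries. RB1CC1 had 2047, 1627 and 2182 normalized counts in the shZDHHC20 libraries, and without replicate 2 its log2 fold change was 0.23 (adjusted p = 0.00222, limma). ATG101 had 435, 661 and 447, and without replicate 2 its log2 fold change was -0.28 (adjusted p = 0.0121, limma).

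The class III PI3-kinase complexes consist of the lipid kinase VPS34 (PIK3C3), its adaptor PIK3R4 and BECN1, with ATG14 for initiation or UVRAG for later steps, and AMBRA1 as a BECN1 partner. Of these 6 genes, 2 rose and none fell. BECN1 (ENSG00000126581), the scaffold that BCL2 proteins bind, had 542, 551 and 571 normalized counts in the shControl libraries and 665, 759 and 718 in the shZDHHC20 libraries. The groups were well separated, with a log2 fold change of 0.36 ± 0.0739 (SE, n = 3, adjusted p = 0.00639 by limma). PIK3C3 (ENSG00000078142), the catalytic subunit, had 502, 495 and 550 against 633, 637 and 679 normalized counts. It rose by 0.33 ± 0.0749 on the log2 scale (SE, n = 3, adjusted p = 0.0110 by limma), with no overlap, and the call was lost when shControl replicate 1 or 2 or shZDHHC20 replicate 3 was left out. ATG14, the subunit that directs the complex to the forming autophagosome and the gene with 1 E-box above, had 431, 404 and 365 against 525, 447 and 477 normalized counts. The lowest shZDHHC20 value lay just above the highest control value, and the gene was not called (log2 fold change 0.27, 95% interval 0.08 to 0.47, adjusted p = 0.0759 by limma). AMBRA1 did not overlap between groups and was not called (log2 fold change 0.16, adjusted p = 0.175, limma). PIK3R4 and UVRAG overlapped, with log2 fold changes of -0.04 and -0.11.

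Membrane supply rests on the lipid transfer proteins ATG2A and ATG2B, the scramblases ATG9A, VMP1 and TMEM41B, and the phosphoinositide readers WIPI1 and WIPI2. Of these 7 genes, 2 rose and none fell. WIPI2 (ENSG00000157954), which recruits the ATG16L1 complex, had 2036, 1972 and 2096 normalized counts against 2536, 2498 and 2449 after knockdown. The knockdown libraries were close together and apart from the controls, a rise of 0.29 ± 0.0510 on the log2 scale (SE, n = 3, adjusted p = 0.0022 by limma). WIPI1, its paralog, overlapped between groups (log2 fold change -0.08, 95% interval -0.28 to 0.13). VMP1 (ENSG00000062716), a scramblase of the endoplasmic reticulum, had 4964, 5059 and 4629 against 5520, 5577 and 5326 normalized counts. The rise was just past the threshold, at 0.17 ± 0.0489 on the log2 scale (SE, n = 3, adjusted p = 0.0445 by limma), and the call was lost in 5 of the 6 fits that left out 1 library, all but the one without shZDHHC20 replicate 2. VMP1 shares exons on the same strand with MIR21, the gene of a microRNA. TMEM41B, which acts beside VMP1, was lower in every shZDHHC20 library without being called (log2 fold change -0.14, 95% interval -0.26 to -0.03, adjusted p = 0.112 by limma). ATG2A lay above and ATG2B below the controls in every library, with log2 fold changes of 0.11 and -0.15, and ATG9A overlapped at 0.05, none of them called.

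Of the 10 genes of the conjugation machinery, 1 rose and 2 fell. ATG7 is the E1-like enzyme that activates both ATG12 and the ATG8 proteins, ATG3 is the E2-like enzyme that passes ATG8 proteins to lipid, ATG10 is the E2-like enzyme for ATG12, and the ATG12–ATG5–ATG16L1 complex acts as the E3. ATG3 (ENSG00000144848), whose promoter holds 2 E-boxes, had 735, 758 and 760 normalized counts in the shControl libraries and 640, 561 and 596 in the shZDHHC20 libraries. Every shZDHHC20 library was below every control, and the fall was the largest among the 39 genes (log2 fold change -0.33 ± 0.0722, SE, n = 3, adjusted p = 0.0099 by limma). ATG7 (ENSG00000197548) went from 1103, 1114 and 1140 to 887, 954 and 932 normalized counts. It fell by 0.28 ± 0.0608 on the log2 scale (SE, n = 3, adjusted p = 0.00983 by limma), without overlap. Neither ATG3 nor ATG7 was called when shControl replicate 2 or replicate 3 was left out, and ATG7 was also not called without shZDHHC20 replicate 1. Over the 17 alternatives the adjusted p reached 0.112 for ATG3 and 0.106 for ATG7, both without a mean-variance trend.

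The 4 ATG4 proteases trim ATG8 precursors and release ATG8 from lipid, and ATG4A (ENSG00000101844) prefers GABARAP proteins. ATG4A had 401, 324 and 350 normalized counts in the shControl libraries and 483, 504 and 488 in the shZDHHC20 libraries. Its shZDHHC20 values were close together and its control values were spread, and the log2 fold change of 0.46 ± 0.0908 (SE, n = 3, adjusted p = 0.00513 by limma) was the largest among the called genes. ATG4D had 249, 268 and 289 against 213, 244 and 243 normalized counts, lower in every shZDHHC20 library but not called (log2 fold change -0.20, 95% interval -0.43 to 0.02, adjusted p = 0.259 by limma). ATG4B and ATG4C overlapped, with log2 fold changes of 0.04 and 0.07. The differences between the ATG4 genes were not tested. ATG5, the core of the E3 complex, had 1357, 1346 and 1321 against 1487, 1362 and 1656 normalized counts. shZDHHC20 replicate 2 was only just above the highest control, and the gene was not called (log2 fold change 0.16, 95% interval 0.01 to 0.31, adjusted p = 0.187 by limma); without that library the log2 fold change was 0.23 (adjusted p = 0.00592). ATG16L1, ATG10 and ATG12 had log2 fold changes of 0.12, 0.12 and 0.07 and were not called.

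**Figure D3:**
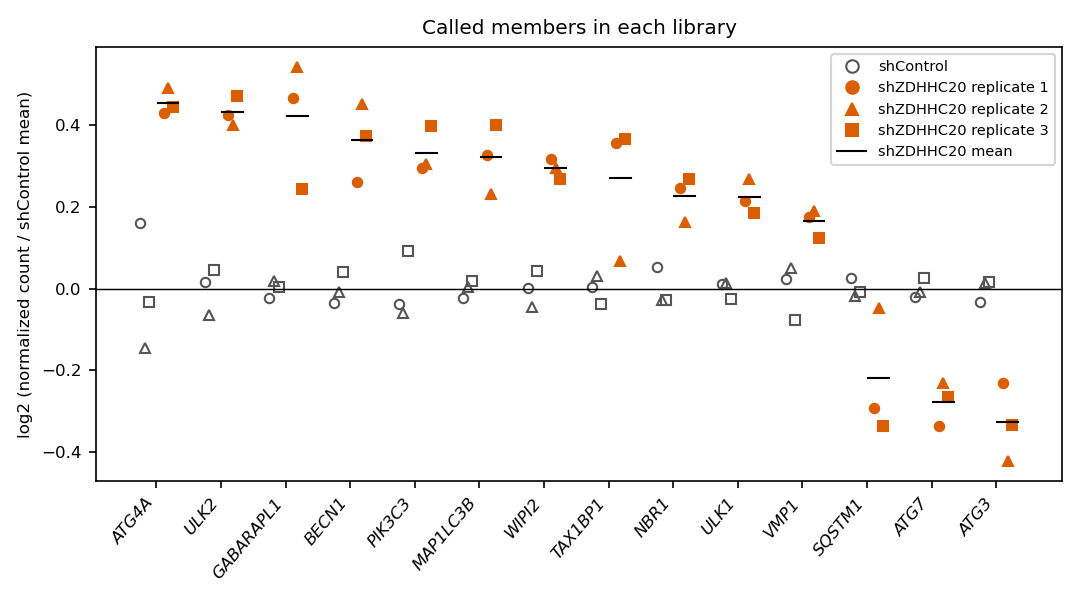
Normalized counts of the 14 called genes in each of the 6 libraries, as log2 of the ratio to the mean of the 3 shControl libraries, with open grey symbols for shControl, filled orange symbols for shZDHHC20 (triangle, replicate 2) and a bar for the shZDHHC20 mean. The groups do not overlap for any of the 14, and the triangle of TAX1BP1 and of SQSTM1 lies closest to the controls.

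The ATG8 proteins coat the autophagosome membrane and fall into the LC3 and GABARAP subfamilies. Of their 5 genes, 2 rose and none fell, 1 in each subfamily. MAP1LC3B (ENSG00000140941), which encodes the LC3B protein used as the standard autophagosome marker, had 2587, 2634 and 2663 normalized counts against 3298, 3088 and 3467. It rose by 0.32 ± 0.0538 on the log2 scale (SE, n = 3, adjusted p = 0.00177 by limma), and the groups stood well apart. GABARAPL1 (ENSG00000139112) had 802, 826 and 818 against 1126, 1188 and 966 normalized counts. Its controls were nearly level and shZDHHC20 replicate 3 was the lowest of the knockdown libraries, with a log2 fold change of 0.42 ± 0.0771 (SE, n = 3, adjusted p = 0.00332 by limma). GABARAPL2 lay above the controls in every shZDHHC20 library without being called (log2 fold change 0.10, 95% interval -0.03 to 0.24), and MAP1LC3A overlapped (0.05, 95% interval -0.21 to 0.31). GABARAP, singled out here after its values were seen, had 27.3, 5.02 and 10.0 normalized counts against 25.4, 48.8 and 19.2. The groups overlapped, and its log2 fold change of 1.36 had a 95% interval of 0.18 to 2.55 and was not called. GABARAP shares exons on the same strand with AC120057.2, a gene without a row among the deposited values. Whether reads of GABARAP were lost to that overlap is unknown.

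Levels per kilobase of exon allow only a rough comparison between genes. The length was that of all annotated exons of a gene merged, not of the transcripts that PANC-1 uses. LC3B had the highest level as counted among the ATG8 RNAs, with 45.5%, 46.1% and 46.4% of the summed level of the 5 genes in the shControl libraries and 48.2%, 45.0% and 51.4% in the shZDHHC20 libraries. The shares overlapped between groups. GABARAPL2 had 31.0%, 31.4% and 29.7% in the shControl libraries and 27.4%, 27.9% and 27.4% in the shZDHHC20 libraries, a lower share in each. The summed level per kilobase was 1884, 1894 and 1903 in the shControl libraries and 2269, 2276 and 2237 in the shZDHHC20 libraries, given as a description without a test. Since reads of GABARAP could have been lost to its overlap with AC120057.2, its level, and with it these shares, the sum and its own rank, are uncertain. Over the whole group, the shControl level per kilobase ran from 3946 for SQSTM1, followed by 1801 for VMP1 and 1000 for TAX1BP1, down to 42.4 for PIK3C3, 19.6 for ATG2B and 6.22 for GABARAP. These levels may also hold reads of the overlapping genes and pseudogenes named below, so the order is approximate.

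Cargo receptors bind ubiquitinated or damaged material at one end and ATG8 proteins at the other. Of the 5 receptor genes, 2 rose and 1 fell. SQSTM1 (ENSG00000161011), which encodes p62, a receptor that is itself degraded by autophagy, had 13956, 13545 and 13644 normalized counts in the shControl libraries and 11204, 13266 and 10876 in the shZDHHC20 libraries. Replicate 2 lay close under the controls and the other shZDHHC20 libraries far below, and the log2 fold change was -0.22 ± 0.0630 (SE, n = 3, adjusted p = 0.0351 by limma). Without replicate 2 it was -0.31 (adjusted p = 4.84e-07 by limma, with 2 shZDHHC20 libraries), while the call was lost when any other single library was left out. TAX1BP1 (ENSG00000106052), a receptor for aggregates and ferritin complexes, had the mirrored pattern, with 3751, 3820 and 3644 against 4789, 3919 and 4820 normalized counts. Its log2 fold change was 0.26 ± 0.0704 (SE, n = 3, adjusted p = 0.0275 by limma), 0.36 without replicate 2 (adjusted p = 2.38e-06), and the call was likewise lost without any other single library. NBR1 (ENSG00000188554), a receptor for ubiquitinated proteins and peroxisomes, had 2024, 1915 and 1914 against 2315, 2185 and 2350 normalized counts. All shZDHHC20 libraries were higher, by 0.23 ± 0.0541 on the log2 scale (SE, n = 3, adjusted p = 0.0157 by limma), and the call was lost when shControl replicate 2 or 3 or shZDHHC20 replicate 1 or 3 was left out. OPTN and CALCOCO2 (NDP52), receptors known from the clearance of mitochondria and bacteria, overlapped, with log2 fold changes of 0.03 (95% interval -0.12 to 0.17) and 0.00 (-0.15 to 0.15). EPG5, which tethers autophagosomes to lysosomes, was lower in every shZDHHC20 library without being called (log2 fold change -0.15, adjusted p = 0.197 by limma).

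Exons of 9 of the 14 called genes overlap another gene in GENCODE 29, in all 9 with an overlap on the opposite strand. The libraries were directional, but it is not given in the sources used here whether the counting used strand, so reads of BECN1 and PSME3, ATG3 and SLC35A5, ATG7 and VGLL4, MAP1LC3B and FBXO31, SQSTM1 and MGAT4B, VMP1 and PTRH2, GABARAPL1 and AC115676.1, NBR1 and AC060780.1, or TAX1BP1 and JAZF1 may be mixed. ULK1, ULK2, PIK3C3, WIPI2 and ATG4A have no such overlap. BECN1, ATG3, ATG4A, MAP1LC3B and SQSTM1 also have a named pseudogene that could share reads, and MAP1LC3B has the near-identical copy MAP1LC3B2.

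Genes that act beside the core machinery were taken as 5 further lists of 108 genes in all, of which 107 were tested and 20 (18.7%) were called, 10 higher and 10 lower. That share lies between the 11.5% of all genes and the 21.7% of well-expressed genes. Among 37 regulators of mTORC1, AMPK and TFEB, 4 rose and 4 fell. The genes that rose were PRKAA2 (log2 fold change 0.42) and PRKAG1 (0.31), subunits of the energy sensor AMPK, SESN1 (0.42), a sestrin that restrains mTORC1, and FNIP2 (0.28), a folliculin partner. The other AMPK subunit genes of the list, PRKAA1 (-0.14), PRKAB1 (0.07), PRKAB2 (-0.09) and PRKAG2 (0.19), were not called. Those that fell were DDIT4 (-0.53), a stress-induced mTORC1 inhibitor, RHEB (-0.32), the GTPase that activates mTORC1, MLST8 (-0.27), an mTOR subunit, and FOXO3 (-0.18), a transcription factor. The calls of PRKAA2, PRKAG1, DDIT4 and RHEB were kept in each fit that left out 1 library. SESN1 lost its call without shControl replicate 3, and FNIP2 without any library other than shZDHHC20 replicate 2. MLST8 and FOXO3 lost theirs without any 1 of the shControl libraries or without shZDHHC20 replicate 1.

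Among 20 genes for fusion of autophagosomes with lysosomes, 4 rose and 2 fell. The SNARE genes STX17 (0.40, adjusted p = 0.0180), VAMP8 (0.38, 0.00963), STX7 (0.24, 0.0285) and VAMP7 (0.19, 0.0360) rose on the log2 scale (limma). All 4 calls were kept without shZDHHC20 replicate 2. Leaving out any other single library lost those of STX17, STX7 and VAMP7, and leaving out shControl replicate 1 also lost that of VAMP8. SNAP29 (-0.12) and YKT6 (0.24), also SNARE genes, were not called. The 2 genes that fell encode GTPases. RAB7A, which marks late endosomes and lysosomes, had 3716, 3808 and 3848 normalized counts against 2761, 2737 and 2748, a log2 fold change of -0.46 (adjusted p = 3.36e-05, limma), and was called in 17 of 17 alternatives. RAB2B had a log2 fold change of -0.61 (adjusted p = 0.00223, limma). Of 26 organelle receptors, the endoplasmic reticulum receptor CCPG1 rose (0.34), and BNIP3 (-0.36), a receptor for mitochondria, and RTN3 (-0.19), one for the endoplasmic reticulum, fell. Of 14 accessory genes, only ZFYVE1 (-0.27), which encodes the omegasome marker DFCP1, was called. The calls of CCPG1 and ZFYVE1 were lost when any single library other than shZDHHC20 replicate 2 was left out. That of RTN3 was lost without any 1 of the shControl libraries or without shZDHHC20 replicate 1. Of 11 genes for chaperone-mediated autophagy, HSP90AA1 (0.18) rose and CTSA (-0.35), the protease that cleaves LAMP2A, fell. HSPA8, the chaperone that picks the substrates, had a log2 fold change of 0.14 (adjusted p = 0.104, limma; 0.20 and 1.38e-05 without shZDHHC20 replicate 2), and LAMP2, the lysosomal receptor gene, -0.07 (adjusted p = 0.476, limma), summed over its isoforms. For the regulator, fusion, organelle, accessory and chaperone-mediated lists in turn, 13, 7, 7, 3 and 8 genes were called without shZDHHC20 replicate 2. Leaving out shControl replicate 1 gave 5, 2, 1, 0 and 1 called genes, replicate 2 gave 5, 3, 1, 0 and 1, and replicate 3 gave 4, 3, 1, 0 and 1. Leaving out shZDHHC20 replicate 1 gave 5, 4, 1, 1 and 1, and replicate 3 gave 7, 3, 2, 0 and 2. The share of all genes called was 20.0% without shZDHHC20 replicate 2, 5.54%, 5.77% and 5.55% without shControl replicates 1, 2 and 3, and 6.24% and 7.96% without shZDHHC20 replicates 1 and 3, against 11.5% with all libraries.

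**Figure D4:**
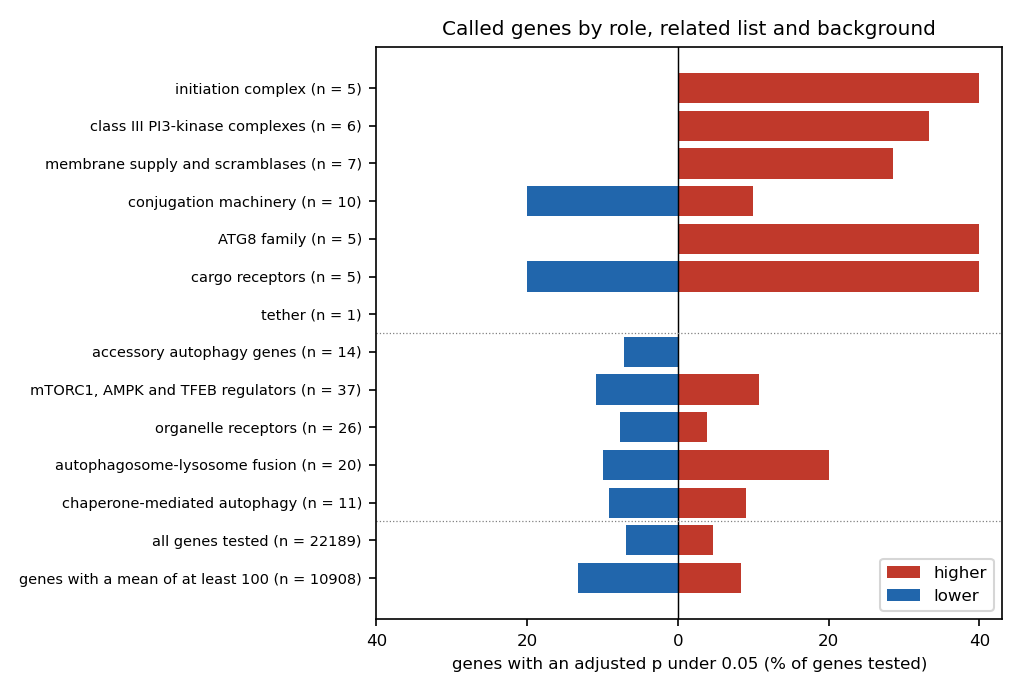
Share of genes called (% of genes tested, red higher to the right and blue lower to the left) for the 7 roles of the core genes, the 5 related lists and the background of all genes and of well-expressed genes (mean of at least 100). Initiation, PI3-kinase, membrane and ATG8 genes have bars to the right and none to the left, while conjugation and receptor genes have both.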

How the data were processed

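RNA-seq was analysed from the deposited table of 6 PANC-1 libraries. The authors deposited 1 signal value per gene and library under the name FPKM, but 100% of the values were whole multiples (tolerance 0.001) of each library's smallest value, as gene counts divided by 1 size factor are. The test planned for FPKM values was nevertheless kept as the main fit, and count tests on the recovered reads were added as alternatives. The labels give hg19; the aligner, the counting tool and the annotation are not given in the sources used here. Columns headed siZDHHC20 and NC were matched to the shZDHHC20 and shControl titles by group and number. Gene names came from the reference table (27175 of 27394 identifiers) and GENCODE 29 (219), which also gave exon lengths and overlaps, and no gene coordinates of the table are given.

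Values were transformed as log2(value + 0.1), a scale that understates fold changes of low genes, and genes averaging at least 1 were fitted with limma 3.58.1 (lmFit, eBayes with a mean-variance trend, two-sided, Benjamini-Hochberg) in R 4.3.3. Alternatives used other pseudocounts, filters and scalings, other moderation, a replicate block, edgeR 4.0.16, DESeq2 1.42.0 and leaving out each library. Only the main fit was tried on simulated data, with planted changes larger than those of the called genes and no deviant library. That trial does not cover changes as small as those reported here. Counting error was not modelled in the main fit, and no interval for it is given.

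The members and the gene lists were chosen with earlier results of these data known. Values per library are given for every called gene, for the 3 others with a mean of at least 50 and the largest change, and for ULK1, BECN1, ATG5, ATG7, MAP1LC3B and SQSTM1 in any case. From the related lists, called genes, HSPA8 and LAMP2 were named. The uncalled AMPK subunit and SNARE genes were added after their values were seen. Figures were drawn with matplotlib 3.10.9 in Python 3.11.15.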

Additional observations from a re-analysis of the deposited data

How the results depend on the processing

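The direction of each of the 14 called genes was the same under all 17 alternatives, and the ZDHHC20 log2 fold change stayed between -1.27 and -1.17. The number of autophagy genes called was 14 (11 higher, 3 lower), and 0 without a mean-variance trend, where 0 of the regulator, organelle, accessory and chaperone-mediated genes and 1 of the fusion genes were called. Over the fits that left out 1 library, 7 to 20 were called, with 7 to 16 higher and 0 to 4 lower, 0 to 1 met the p and fold criteria, and the median log2 fold change lay between 0.0638 (without shZDHHC20 replicate 1) and 0.139. Related genes called in these fits numbered 0 to 3 (accessory), 4 to 13 (regulators), 1 to 7 (organelle), 2 to 7 (fusion) and 1 to 8 (chaperone-mediated). The chaperone-mediated count of 2 was 4 with a pseudocount of 1, a mean of at least 5, quantile normalization or DESeq2, 6 with robust moderation, and 1 with a pseudocount of 0.01 or no filter. Of well-expressed genes, 22.9%, 23.8%, 20.8%, 23.1%, 23.3%, 20.3% and 20.7% were called under these settings in turn, against 21.7% in the main fit. The accessory count of 1 was 0 with quantile normalization. The cause of these shifts was not tested.

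With the replicate number as a block, 13 autophagy genes were called, all but VMP1, and 1942 genes in all against 2541; the related counts were 5 regulators, 1 chaperone-mediated and 0 accessory genes. Same-numbered libraries did not deviate together (r = -0.0948, -0.156 and -0.0771 over 10908 genes), so the numbers were not taken as pairs, and no library correlated best with its own number.

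Genes near 0 changed sign when 1 library was left out, none of them called in the fit with all libraries. These were CALCOCO2 (-0.0654 to 0.0867), MAP1LC3A (-0.0716 to 0.165), ATG101 (-0.276 to 0.0269), ATG4B (-0.00782 to 0.0843), ATG4C (-0.0993 to 0.156), OPTN (-0.0148 to 0.0857) and PIK3R4 (-0.107 to 0.0301). Of 663 single-gene values under alternatives, 597 stayed on the same side of the threshold with the same sign, 47 lost and 7 gained the call, and 12 changed sign. The 3 libraries per group limit the precision, and GABARAP, at 5.02 to 48.8 normalized counts, was too low for its change to be resolved.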
